A study of Saccharomyces cerevisiae with 4 samples.

Results

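The 34 genes described here encode the TATA-binding protein (TBP, from SPT15), the factors that bind it or remove it from DNA, the TBP-associated factors (TAFs) of TFIID, and the subunits of SAGA in budding yeast, Saccharomyces cerevisiae. They were picked out by systematic identifier, with no threshold on their values but with earlier results of these data known, and all 34 were found among the 6688 genes of the deposited table. They comprise SPT15, MOT1, the NC2 genes BUR6 and NCB2, the TFIIA genes TOA1 and TOA2, the TFIIB gene SUA7, TAF1 to TAF13, and 14 SAGA genes. All 34 passed the filter on low counts.

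TBP binds the core promoter and bends its DNA, which starts the assembly of the RNA polymerase II initiation complex. It is brought to promoters by TFIID or by SAGA, a coactivator that also acetylates histones through Gcn5 and removes ubiquitin from histone H2B through Ubp8. TFIIA and TFIIB stabilise TBP on DNA, whereas the ATPase Mot1 strips it off and NC2 binds to it and blocks TFIIA and TFIIB. Nhp6 is an HMG-box protein that bends DNA, and in vitro it promotes the formation of the complex of TBP, TFIIA and TATA DNA.

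Polyadenylated RNA was sequenced from nhp6ab cells and from WT cells, with 2 libraries per strain, both from exponential growth in YPD, which is rich medium with glucose. The name nhp6ab is the usual one for a strain that lacks NHP6A and NHP6B, but the labels give neither the deleted bases nor the strain background. The libraries held 28721743 and 29115870 expected counts for nhp6ab and 22622592 and 27581468 for WT. NHP6A was at 11.1 and 12 CPM (expected counts scaled to a common library size with TMM factors) in nhp6ab, against 122 and 130 CPM in WT, and NHP6B at 33.4 and 32.6 CPM in nhp6ab, against 80.0 and 86.0 CPM in WT. Both genes were thus lower but not at 0 in the libraries labelled nhp6ab. The alpha-factor gene MF(ALPHA)1 stood at 837 and 942 CPM in nhp6ab and at 806 and 773 CPM in WT, while the 4 a-specific genes that passed the filter reached at most 23.5 CPM, so libraries of both strains carry the transcripts of alpha cells. Of the 4 alpha-specific genes looked at, MF(ALPHA)2, STE3 and SAG1 were called lower in nhp6ab. Nothing says whether the replicates came from separate cultures, so the p-values reflect library-to-library spread that could be purely technical. In bulk RNA, less transcript per cell and fewer cells with the transcript cannot be told apart.

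The promoters of 6 genes are printed for reference, and a link between sequence and change was not tested. They are the NC2, TFIIA and SAGA genes with the largest increases (BUR6, NCB2, TOA1 and TRA1), TAF2, an increased gene with a Reb1 motif, and SPT15 for comparison. Each runs 5′ to 3′ along its gene, from 250 bases before the annotated start codon to 50 bases after it (300 bases, RefSeq assembly R64), and capitals mark a match to a TATA box or to a Reb1 motif on either strand.
BUR6 (chrV:491909-492208, minus strand): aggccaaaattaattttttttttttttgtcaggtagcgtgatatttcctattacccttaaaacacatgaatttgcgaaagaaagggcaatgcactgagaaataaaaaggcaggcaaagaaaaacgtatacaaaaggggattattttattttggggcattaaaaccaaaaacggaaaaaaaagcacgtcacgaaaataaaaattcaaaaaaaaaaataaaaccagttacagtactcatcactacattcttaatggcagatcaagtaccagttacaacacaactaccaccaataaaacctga
NCB2 (chrIV:1266849-1267148, minus strand): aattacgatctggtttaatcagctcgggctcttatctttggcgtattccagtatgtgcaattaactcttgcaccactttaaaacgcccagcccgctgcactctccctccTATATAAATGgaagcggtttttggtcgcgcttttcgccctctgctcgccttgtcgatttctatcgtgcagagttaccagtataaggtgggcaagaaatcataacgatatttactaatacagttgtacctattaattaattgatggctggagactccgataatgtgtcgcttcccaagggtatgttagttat
TOA1 (chrXV:712494-712793, minus strand): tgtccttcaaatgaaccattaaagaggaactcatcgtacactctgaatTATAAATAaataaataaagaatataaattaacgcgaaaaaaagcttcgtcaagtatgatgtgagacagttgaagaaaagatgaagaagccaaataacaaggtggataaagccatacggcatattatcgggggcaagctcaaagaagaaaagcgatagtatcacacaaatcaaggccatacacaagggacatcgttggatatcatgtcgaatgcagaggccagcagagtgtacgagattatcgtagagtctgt
TRA1 (chrVIII:302511-302810, plus strand): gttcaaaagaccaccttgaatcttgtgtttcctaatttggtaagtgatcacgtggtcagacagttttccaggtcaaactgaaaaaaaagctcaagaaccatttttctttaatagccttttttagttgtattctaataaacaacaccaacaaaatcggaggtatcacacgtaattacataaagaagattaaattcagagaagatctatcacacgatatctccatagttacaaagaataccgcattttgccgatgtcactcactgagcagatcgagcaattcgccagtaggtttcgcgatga
TAF2 (chrIII:205348-205647, minus strand): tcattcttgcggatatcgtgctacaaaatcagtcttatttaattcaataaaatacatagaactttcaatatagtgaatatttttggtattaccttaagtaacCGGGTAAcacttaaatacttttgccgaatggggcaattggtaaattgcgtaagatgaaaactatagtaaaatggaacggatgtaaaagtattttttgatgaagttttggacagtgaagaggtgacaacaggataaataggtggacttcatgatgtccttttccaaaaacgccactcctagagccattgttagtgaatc
SPT15 (chrV:465053-465352, plus strand): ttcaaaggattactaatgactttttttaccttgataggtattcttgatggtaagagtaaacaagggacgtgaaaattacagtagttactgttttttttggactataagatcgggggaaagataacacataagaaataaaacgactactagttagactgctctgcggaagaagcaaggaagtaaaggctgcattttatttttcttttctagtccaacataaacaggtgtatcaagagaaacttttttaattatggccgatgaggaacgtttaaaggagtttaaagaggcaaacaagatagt
The TATA motif searched, on both strands, was any of TATAAAAA, TATAAAAG, TATAAATA, TATAAATG, TATATAAA, TATATAAG, TATATATA and TATATATG, and 8 of the 34 windows held it, against 37.7% of 6001 windows of all protein-coding genes. The 8 with a TATA match were NCB2, TOA1, MOT1, ADA2, GCN5, SUS1, TAF11 and TAF12. In the test below NCB2, TOA1 and MOT1 were called higher, ADA2 was called lower, and the rest were not called. NCB2 had overlapping matches at -141 and -139 from the start codon, and TOA1 had a match at -202. The Reb1 motif TTACCCG, the site of a general regulatory factor that keeps promoters free of nucleosomes, was in 8 of the 34 windows, against 7.08% of all windows. These 8 were TAF2, TAF3, TAF5, TAF8, TAF12, SPT7, SPT20 and TOA2, and of them TAF2 had a change that passed the test below. The Gcn4 motif TGACTCA was in 0 of the 34 windows, against 2.73% of all windows. BUR6, TRA1 and SPT15 held no match to these motifs. The matches are letters in a fixed window and do not show binding.

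In nhp6ab, genes for the NC2 repressor, for the large subunit of TFIIA, for the activator-binding subunit Tra1 and for the large TAFs Taf1 and Taf2 were more abundant than in WT, whereas SPT15 itself was not called with TMM factors. Of the 34 genes, 11 rose, 3 fell and 20 were not called by edgeR's quasi-likelihood test, where a call needs a Benjamini-Hochberg adjusted p below 0.05. Over all 6422 genes tested, 24.5% were called higher and 25.0% lower, 49.5% in all. The share of the 34 that rose (32.4%) was thus not far from the background, and the share that fell (8.82%) was below it. The median log2 fold change was 0.08, against 0.01 for all genes tested. The largest change was that of BUR6, which was 1.95-fold higher, and the other changes stayed under 1.5-fold. Both nhp6ab libraries lay above both WT libraries for 17 of the 34 genes and below them for 9, against 38.9% and 38.7% of all genes.

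These counts depended on single WT libraries and on the scaling. Without WT replicate 1, 6 of the 34 were called higher and 1 lower, when 14.0% of all genes were called higher and 16.5% lower. Without WT replicate 2 the counts were again 6 and 1, with 14.2% and 17.1% of all genes. With library size alone, in place of TMM factors, the median of all genes was 0.22, and on log2(TPM + 1) it was 0.28 (TPM is also scaled for gene length). There 23 of the 34 were called higher with library size alone, against 47.1% of all genes, and 28 on the TPM scale with limma, against 55.5%. The number called lower was 0 in both, against 12.5% and 9.61% of all genes, and 0 also had an unadjusted p under 0.05, while DESeq2 called 3 lower. The median of the 34 exceeded that of all genes by 0.073 with TMM factors, by 0.073 when only library size was used, and by 0.075 in the TPM fit. Directions below are with TMM factors, that is, relative to most other genes.

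**Figure D1:**
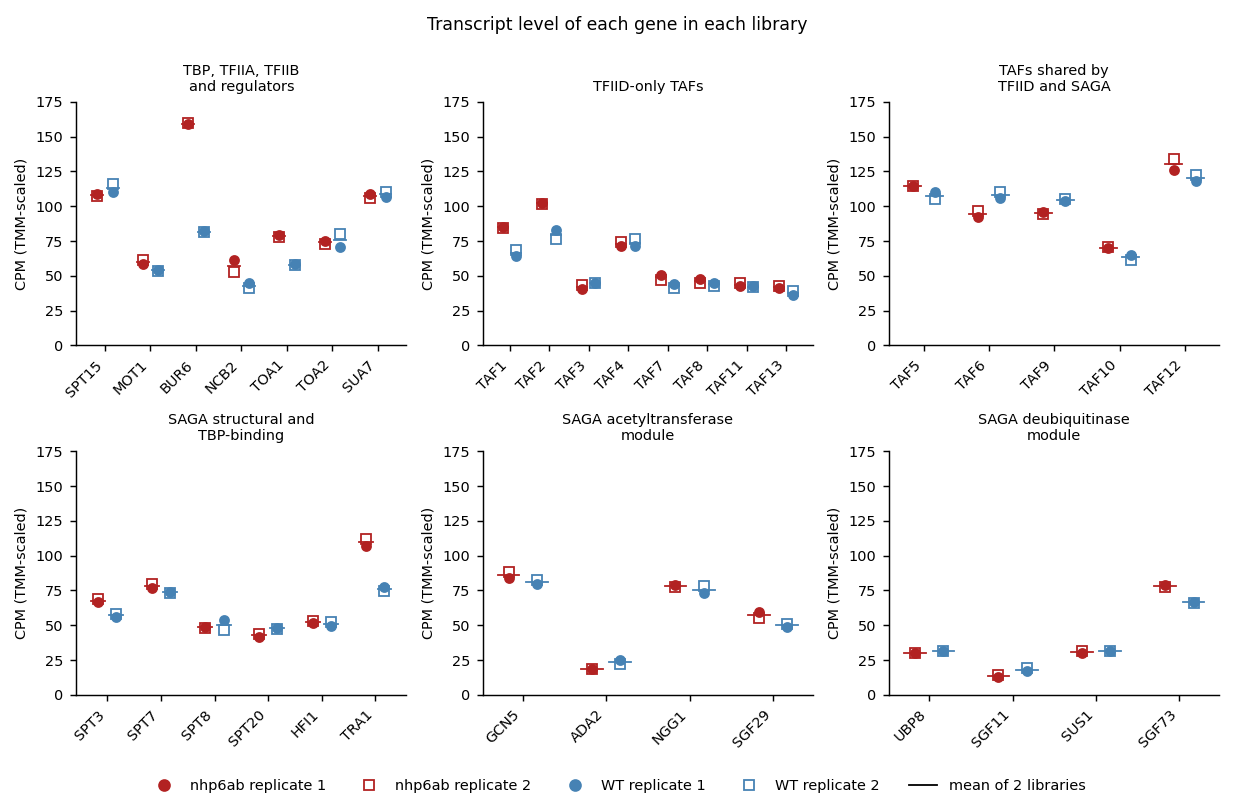
Transcript level of each of the 34 genes in CPM with TMM factors (y axis), with filled circles for replicate 1, open squares for replicate 2 and lines for the mean of each strain's 2 libraries. BUR6 (159 CPM in both nhp6ab libraries) and TRA1 (107 and 112 CPM) stand clear of their WT libraries, whereas most genes of the other panels lie close together.

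**Figure D2:**
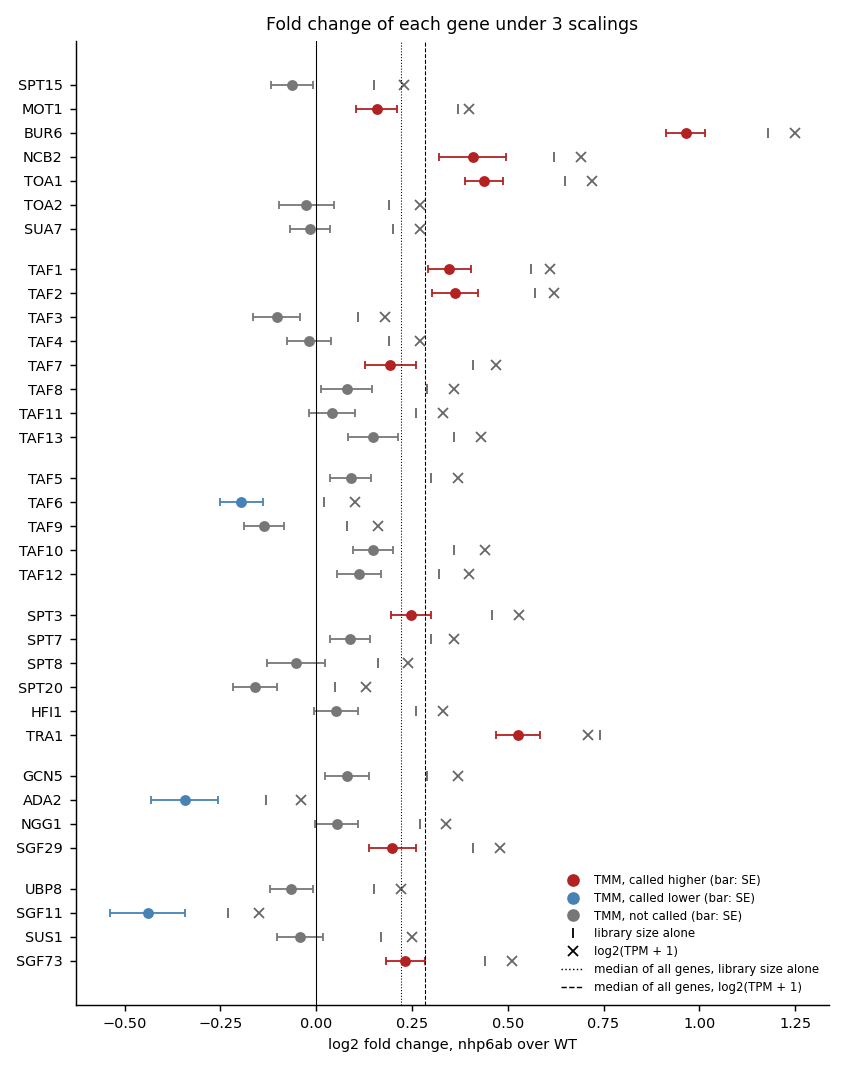
Log2 fold change of nhp6ab over WT (x axis) for each gene, with coloured points and SE bars for TMM factors, ticks for library size alone and crosses for log2(TPM + 1). The dotted and dashed lines, at 0.22 and 0.28, are the medians of all genes under the last pair of scalings: TAF6 is at -0.20 with TMM factors but at 0.02 and 0.10 there, and ADA2 and SGF11 stay below 0 but lose their calls.

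Among TBP and the factors that act on it, both NC2 genes rose and SPT15 was not called with TMM factors. SPT15 (YER148W; chromosome V, 465303 to 466025) had 109 and 107 CPM in nhp6ab, against 110.0 and 116 CPM in WT. Its log2 fold change was -0.06 ± 0.05 (SE, n = 2 each; 95% interval -0.19 to 0.07; adjusted p = 0.372), with a call neither there nor with library size alone (0.15, adjusted p = 0.0638). On log2(TPM + 1) and log2(TPM + 0.1), limma did call it higher (0.23 in both, adjusted p = 0.0229 and 0.023). BUR6 (YER159C; chromosome V, 491530 to 491958), the alpha subunit of NC2, had 159 and 159 CPM in nhp6ab, against 81.9 and 81.5 CPM in WT. The libraries of each strain nearly coincided and the strains were far apart, with a log2 fold change of 0.96 ± 0.05 (adjusted p = 2.71e-05), which ranked 108th among the 6422 genes from the largest increase down. NCB2 (YDR397C; chromosome IV, 1266366 to 1266898, 2 coding exons), the beta subunit, had 61.6 and 52.8 CPM in nhp6ab, against 44.8 and 41.3 CPM in WT. Its libraries did not overlap between the strains but varied more (0.41 ± 0.09, adjusted p = 0.00772), and the call was lost without WT replicate 2 (0.35, adjusted p = 0.0852). MOT1 (YPL082C; chromosome XVI, 398480 to 404083), the ATPase that removes TBP from DNA, had 58.9 and 61.4 CPM in nhp6ab, against 54.0 and 53.8 CPM in WT. This small increase (0.16 ± 0.05, adjusted p = 0.0434) was not called in DESeq2, with upper-quartile factors, or without WT replicate 1, WT replicate 2 or nhp6ab replicate 2 (adjusted p = 0.137, 0.161 and 0.172).

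The general factors that bind next to TBP split within TFIIA. TOA1 (YOR194C; chromosome XV, 711683 to 712543), which encodes the large subunit, had 79.4 and 78.0 CPM in nhp6ab, against 58.4 and 57.7 CPM in WT. All nhp6ab values were above all WT values, and it rose by 0.44 ± 0.05 on the log2 scale (adjusted p = 0.000568). TOA2 (YKL058W), which encodes the small subunit, had 75.3 and 72.8 CPM in nhp6ab, against 70.6 and 80.3 CPM in WT, and its groups overlapped (95% interval -0.19 to 0.14). SUA7 (YPR086W), the TFIIB gene, had 109 and 106 CPM in nhp6ab, against 107 and 110.2 CPM in WT, also with overlap (95% interval -0.14 to 0.11). These intervals are with TMM factors. With library size alone, edgeR called SUA7 higher (0.20, adjusted p = 0.0197) but not TOA2 (0.19, adjusted p = 0.0676). On log2(TPM + 1), limma called both higher (0.27 for each, adjusted p = 0.00958 for SUA7 and 0.0322 for TOA2).

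Ratios of TPM between genes of the same library do not depend on the scaling factor of that library, and they show the same order. BUR6 had 2.55 and 2.60 times the TPM of SPT15 in nhp6ab, against 1.30 and 1.23 times in WT. NCB2 had 0.959 and 0.835 times the TPM of SPT15 in nhp6ab, against 0.691 and 0.605 times in WT. Both NC2 transcripts were thus higher relative to that of TBP in both nhp6ab libraries. The difference was not equal for the pair: BUR6 over NCB2 was 2.66 and 3.12 in nhp6ab, against 1.88 and 2.03 in WT. TOA1 over TOA2 was 0.425 and 0.432 in nhp6ab, against 0.333 and 0.290 in WT, and SUA7 over SPT15 was 0.684 and 0.677 in nhp6ab, against 0.666 and 0.652 in WT. The ratios were chosen with the values of these genes known and are given without a test.

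**Figure D3:**
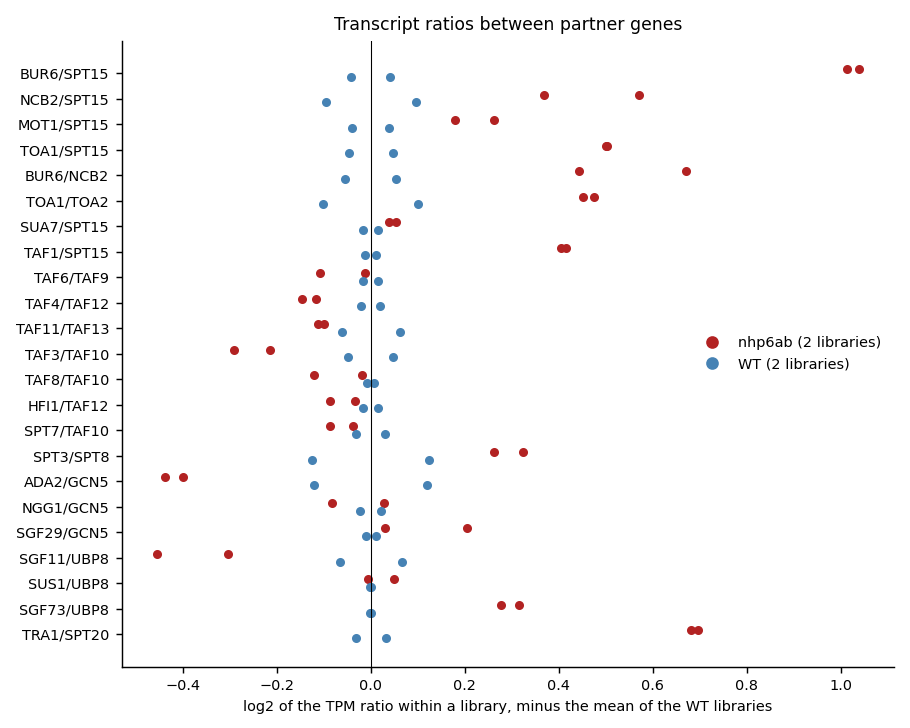
Log2 of the TPM ratio between the named genes within each library, minus the mean of the WT libraries (x axis), with 2 points per strain. BUR6/SPT15 (2.55 and 2.60 in nhp6ab, 1.30 and 1.23 in WT) and TRA1/SPT20 (0.406 and 0.410 in nhp6ab, 0.259 and 0.248 in WT) moved furthest up, and ADA2/GCN5 and SGF11/UBP8 furthest down.

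BUR6 lies in the reference beside a retrotransposon whose reads differed between the strains. In R64 a tRNA-Arg gene lies 393 bases upstream of the BUR6 start codon and a Ty1 element 736 bases upstream, with the Ty1 gene YER160C at 897 bases, all on the minus strand like BUR6. YER160C had 0 and 0.0953 CPM in nhp6ab, against 41.4 and 35.0 CPM in WT. It is a repeated gene, so its reads cannot be placed with certainty, and the labels do not say whether either strain carries this insertion. SPT2, on the far side of the element, had 82.4 and 84.1 CPM in nhp6ab, against 84.6 and 97.1 CPM in WT, and YER158C, downstream of BUR6, had 35.5 and 46.6 CPM in nhp6ab, against 36.8 and 36.1 CPM in WT. Neither was called (adjusted p = 0.200 and 0.283 in edgeR). The part of the Ty1 difference in the BUR6 result was not tested.

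**Figure D4:**
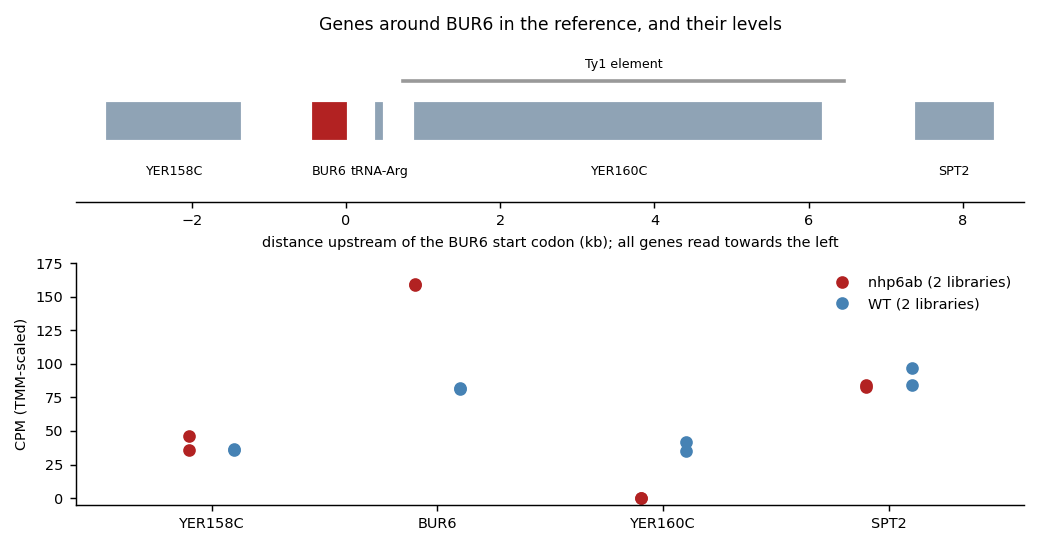
Top, genes around BUR6 in the reference by distance from its start codon in kb; bottom, CPM of 4 of them in the 2 libraries of each strain. BUR6 is higher in nhp6ab (159 against 81.5 and 81.9 CPM), and YER160C is near 0 in nhp6ab (35.0 and 41.4 CPM in WT). YER158C had 35.5 and 46.6 CPM in nhp6ab, against 36.8 and 36.1 CPM in WT. SPT2 had 82.4 and 84.1 CPM in nhp6ab, against 84.6 and 97.1 CPM in WT, and neither gene was called.

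Of the 8 TAFs found in TFIID but not in SAGA, 3 rose and the other 5 were not called, when 24.5% of all genes were called higher and 25.0% lower. TAF1 (YGR274C; chromosome VII, 1039895 to 1043095), the scaffold subunit that also contacts TBP, had 85.1 and 84.4 CPM in nhp6ab, against 64.4 and 68.9 CPM in WT. TAF2 (YCR042C; chromosome III, 201174 to 205397), an aminopeptidase-like subunit, had 103 and 102 CPM in nhp6ab, against 82.6 and 76.4 CPM in WT. Both rose with no overlap, TAF1 by 0.35 ± 0.06 and TAF2 by 0.36 ± 0.06 on the log2 scale (adjusted p = 0.00245 and 0.00255). The 3′ end of TAF2 shares 70 bases with YCR041W on the opposite strand, which had 19.0 and 20.2 CPM in nhp6ab and 20.9 and 18.3 CPM in WT. TAF7 (YMR227C), a partner of Taf1, had 50.9 and 47.3 CPM in nhp6ab, against 44.3 and 41.4 CPM in WT. Its small increase (0.19 ± 0.07, adjusted p = 0.0486) was lost in DESeq2, with upper-quartile factors, without the low-count filter, and without WT replicate 1, WT replicate 2 or nhp6ab replicate 1 (adjusted p = 0.0798, 0.217 and 0.203).

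TAF3, TAF4, TAF8, TAF11 and TAF13, which encode histone-fold subunits, had log2 fold changes between -0.10 (TAF3) and 0.15 (TAF13), and none was called. TAF13 had 41.2 and 42.8 CPM in nhp6ab, against 36.6 and 39.3 CPM in WT, above WT in both libraries but with an adjusted p of 0.0993. TAF4 overlapped between the strains, at 71.5 and 74.3 CPM in nhp6ab and 71.6 and 76.2 CPM in WT.

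The 5 TAFs shared by TFIID and SAGA moved little and not together. TAF6 (YGL112C; chromosome VII, 298178 to 299728) had 92.3 and 96.5 CPM in nhp6ab, against 106 and 110.0 CPM in WT. It fell by 0.20 ± 0.06 on the log2 scale (adjusted p = 0.0234), but it stood at 0.02 with library size alone and 0.10 on log2(TPM + 1), and it was not called without WT replicate 1, WT replicate 2 or nhp6ab replicate 1 (adjusted p = 0.0811, 0.127 and 0.0507). TAF9, its histone-fold partner, had 96.2 and 94.1 CPM in nhp6ab, against 104 and 105 CPM in WT, without a call (-0.14 ± 0.05, adjusted p = 0.0654). With upper-quartile factors edgeR called TAF9 lower (-0.15, adjusted p = 0.0455). TAF6 over TAF9 was 0.277 and 0.296 in nhp6ab, against 0.296 and 0.302 in WT by TPM. TAF10 had 70.0 and 70.5 CPM in nhp6ab, against 65.0 and 61.7 CPM in WT, just short of a call (0.15 ± 0.05, adjusted p = 0.0542). TAF5, the WD40-repeat subunit, and TAF12 lay at 0.09 and 0.11 and were not called.

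Among the structural and TBP-binding subunits of SAGA, TRA1 and SPT3 rose. TRA1 (YHR099W; chromosome VIII, 302761 to 313995), a very large protein that contacts activators and is also part of the NuA4 acetyltransferase, had 107 and 112 CPM in nhp6ab, against 77.8 and 74.3 CPM in WT. The strains were well separated, and its increase of 0.53 ± 0.06 (adjusted p = 0.000443) was the largest of the 34 after that of BUR6. SPT3 (YDR392W; chromosome IV, 1258696 to 1259709), which contacts TBP, had 66.5 and 68.8 CPM in nhp6ab, against 56.1 and 58.0 CPM in WT (0.25 ± 0.05, adjusted p = 0.0074, and 0.0713 without WT replicate 1). SPT8, which encodes the other TBP-binding subunit, overlapped, at 48.6 and 48.3 CPM in nhp6ab and 53.7 and 46.7 CPM in WT (95% interval -0.23 to 0.13). SPT7, SPT20 and HFI1, which hold the core together, had log2 fold changes of 0.09, -0.16 and 0.05 without a call. SPT20 came closest, with 41.8 and 43.4 CPM in nhp6ab, against 47.7 and 47.6 CPM in WT (adjusted p = 0.0540), and upper-quartile factors called it lower.

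In the acetyltransferase module, ADA2 fell and SGF29 rose, while the gene of the catalytic subunit was not called with TMM factors. GCN5 (YGR252W), the histone acetyltransferase, had 83.6 and 88.3 CPM in nhp6ab, against 79.8 and 82.8 CPM in WT (0.08 ± 0.06, 95% interval -0.05 to 0.22). GCN5 was called higher by edgeR with library size alone (0.29, adjusted p = 0.00725) and by limma on log2(TPM + 1) (0.37, adjusted p = 0.00531). ADA2 (YDR448W; chromosome IV, 1356065 to 1357369), the adaptor that stimulates Gcn5, had 18.4 and 18.9 CPM in nhp6ab, against 25.1 and 22.0 CPM in WT. It fell by 0.34 ± 0.09 on the log2 scale (adjusted p = 0.0152), without a call with library size alone (-0.13), on log2(TPM + 1) (-0.04) or without WT replicate 1 (-0.24, adjusted p = 0.116). ADA2 over GCN5 by TPM was 0.222 and 0.216 in nhp6ab, against 0.318 and 0.270 in WT, lower in both nhp6ab libraries whatever the scaling. SGF29 (YCL010C), a reader of methylated histone H3, had 59.2 and 55.5 CPM in nhp6ab, against 48.7 and 51.2 CPM in WT (0.20 ± 0.06, adjusted p = 0.0315), with no call in DESeq2 or without WT replicate 1, WT replicate 2 or nhp6ab replicate 1 (adjusted p = 0.160, 0.0842 and 0.130). NGG1, also called ADA3, was not called with TMM factors (0.05 ± 0.06).

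The deubiquitinase module showed changes in opposite directions. SGF73 (YGL066W; chromosome VII, 377609 to 379582), which anchors the module to SAGA, had 78.9 and 77.3 CPM in nhp6ab, against 66.7 and 66.2 CPM in WT (0.23 ± 0.05, adjusted p = 0.00836). It lost its call without WT replicate 1 or 2 (adjusted p = 0.0617 and 0.0639), at about the same fold change. SGF11 (YPL047W; chromosome XVI, 465962 to 466261), a zinc-finger subunit needed for Ubp8 activity, had 12.6 and 14.1 CPM in nhp6ab, against 17.4 and 18.9 CPM in WT. It was the least counted of the 34 in every library, with 389 and 444 expected counts in nhp6ab and 444 and 400.0 in WT. It fell by 0.44 ± 0.10 on the log2 scale (adjusted p = 0.00935), but was not called with library size alone (-0.23), on log2(TPM + 1) (-0.15) or without WT replicate 2 (-0.38, adjusted p = 0.0776). UBP8 (YMR223W), the protease, had 30.2 and 30.4 CPM in nhp6ab, against 31.8 and 31.5 CPM in WT, and SUS1 (YBR111W-A, 3 coding exons), which also serves mRNA export, had 29.9 and 31.3 CPM in nhp6ab, against 31.7 and 31.4 CPM in WT. Neither was called. SGF11 over UBP8 by TPM was 2.19 and 2.43 in nhp6ab, against 2.87 and 3.14 in WT, and SGF73 over UBP8 was 1.86 and 1.81 in nhp6ab, against 1.49 and 1.50 in WT.

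By level per length, the 34 transcripts spanned a wide range and mostly kept their order. In TPM the lowest was TRA1, at 8.54 and 9.21 in nhp6ab and 5.04 and 5.0 in WT, followed by MOT1, at 9.45 and 10.1 in nhp6ab and 7.03 and 7.28 in WT. In WT the top 3 were TAF9 (172 and 181 TPM), TOA2 (154 and 182 TPM) and BUR6 (151 and 156 TPM), each overlapping its neighbour in that order. In nhp6ab BUR6 came first with 362 and 373 TPM, above TOA2 (202 and 201 TPM) and TAF9 (196 and 198 TPM). SPT15 was the fourth in both strains, with 142 and 143 TPM in nhp6ab and 116 and 127 TPM in WT. NCB2 ranked 5 in nhp6ab and 8 in WT. Longer genes had lower TPM (Spearman rho -0.82 between coding length and mean WT TPM over the 34 genes, which share their libraries and the division by length). Together the 34 genes held 0.256 and 0.266% of expected counts in nhp6ab, against 0.203 and 0.207% in WT. This share is scaled by library size alone, under which the median log2 fold change of all genes was 0.22 too.

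**Figure D5:**
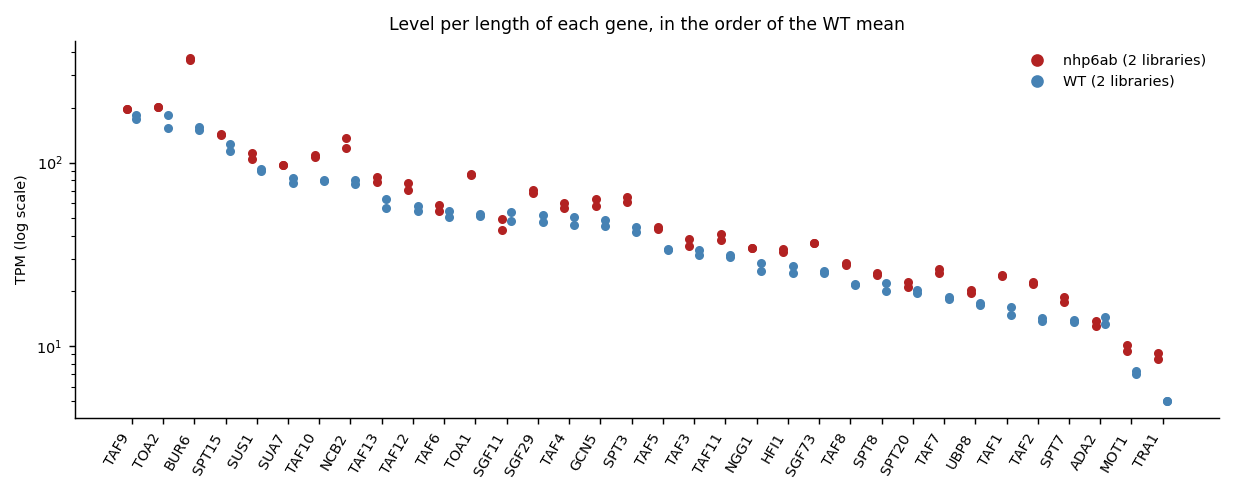
TPM of each of the 34 genes on a log axis, in the order of the WT mean, with 2 libraries per strain. BUR6 reaches 362 and 373 TPM in nhp6ab, against 151 and 156 TPM in WT, and the range runs down to TRA1 at 5.04 and 5.0 TPM in WT.

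The members that rose included several of the longest, but also the short BUR6 (429 coding bases), with the largest increase, and NCB2 (441 coding bases). The long SPT7 and TAF5 were not called. With annotated genes divided by length into 5 groups of like size, 6 of the 34 were in the longest group, with a median log2 fold change of 0.25, while the median of all 1173 genes of that group was 0.08. In the shortest group (up to 630 bases) the median was 0.06 for 8 members and -0.0045 for all 1176 genes. Across genes, the Spearman rho between length and log2 fold change was 0.21 over the 34 and 0.099 over 5863 genes with a length. The part of length in these results was not tested.

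The upstream neighbour of a gene was taken as the nearest protein-coding gene in R64 that does not overlap it. Of the 34 genes, 24 stand back to back with this neighbour and 10 follow it in tandem. Among the 14 called genes, 8 had an upstream neighbour that was also called, 2 of them in the same direction and 6 in the opposite one. The 6 include BUR6, whose neighbour by this rule is the repeated Ty1 gene YER160C, beyond the tRNA-Arg gene. Among the 20 genes without a call, 11 had a called upstream neighbour, and 49.5% of all genes were called, so both counts were near the background. The pairs that moved alike were TAF1 with RTT102 and ADA2 with the ribosomal protein gene RPS17B.

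Other parts of the initiation machinery were listed for comparison. Their counts are set against the 24.5% of all genes called higher and the 25.0% called lower with TMM factors. Of 25 Mediator genes 10 rose and 2 fell, with a median log2 fold change of 0.09. GAL11, the tail subunit that contacts activators, had 101 and 102 CPM in nhp6ab, against 75.5 and 71.9 CPM in WT (0.47 ± 0.05, adjusted p = 0.000628), and CSE2, a middle-module subunit, had 21.6 and 22.2 CPM in nhp6ab, against 31.1 and 31.4 CPM in WT (-0.51 ± 0.06, adjusted p = 0.000732). Of 15 genes of TFIIE, TFIIF and TFIIH, 1 rose (TAF14, 0.33 ± 0.05) and 3 fell, with a median of -0.08. Of 13 NuA4 genes, TRA1 included, 5 rose and 4 fell. Of 5 genes for the partners of TBP at RNA polymerases I and III, 2 fell, RRN11 (-1.13 ± 0.14) and RRN7 (-0.56 ± 0.13), both at 6.45 to 7.31 CPM in nhp6ab, against 9.93 to 15.9 CPM in WT. Of 14 genes often used to study SAGA-dependent transcription, 8 fell and 4 rose, with a median of -0.44. That list was drawn up with earlier results known, and one of its genes is ARG1, of arginine synthesis, with 38.6 and 35.1 CPM in nhp6ab and 392 and 452 CPM in WT. These counts too depended on the scaling and on single libraries, as did those over all genes. With library size alone 15 Mediator genes were called higher and 1 lower, 5 genes of TFIIE, TFIIF and TFIIH higher and 1 lower, 7 NuA4 genes higher with the 4 lower calls lost, 1 partner gene higher and 1 lower, and 5 of the genes used to study SAGA higher and 7 lower, when 47.1% of all genes were called higher and 12.5% lower. Leaving out WT replicate 1 or WT replicate 2 left a lone WT library, and either fit had fewer lower calls in every list. Higher calls were then fewer for Mediator and for the genes used to study SAGA. For NuA4 they were fewer only without WT replicate 1. Those of the partner genes and of TFIIE, TFIIF and TFIIH did not change in number. Among the genes used to study SAGA, lower calls still outnumbered higher calls in both fits. The lower calls in NuA4 were 2 without nhp6ab replicate 1 and 2 in DESeq2, and those in Mediator were 1 without nhp6ab replicate 2 and 1 in DESeq2.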

How the data were processed

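The authors deposited RSEM expected counts and RSEM TPM values per gene for 4 libraries of polyadenylated RNA, 2 per strain, as the names of the deposited sheets say. Per the submitters' processing notes, the genome build was sacCer3. Which aligner, annotation and strand setting were used is not given in the sources used here. Reads of overlapping genes may therefore be mixed. Of 6688 identifiers, 6005 matched RefSeq R64, which gave symbols, coordinates and sequences. Overlaps with the other identifiers were not checked. BLAST+ 2.17.0 found no near-identical copy of any of the 34 genes.

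Rounded expected counts entered edgeR 4.0.16, under R 4.3.3 (TMM factors of 1.06 and 1.10 in nhp6ab and 0.924 and 0.934 in WT, minimum count 10, minimum total 15, quasi-likelihood F test, Benjamini-Hochberg adjustment over 6422 genes, threshold 0.05). The SE of a log2 fold change is its size over the root of F, and intervals are 95% from the same test. On simulated counts for 6409 genes of this comparison with 50 changed genes per fold size, the test recovered 28 at 1.3-fold, 38 at 1.5-fold, 46 at 2-fold and 50 at 4-fold, and called 20 unchanged genes. Far fewer genes were changed there than the 49.5% called in the data, so these rates need not hold for the data. Alternatives used DESeq2 1.42.0 and limma 3.58.1. Figures used matplotlib 3.10.9. The 34 genes, the lists and the genes named were chosen with earlier results of these data known. Named were all 34, NHP6A and NHP6B, overlapping and neighbouring genes, and up to 2 called genes per comparison list with the smallest adjusted p. SPT2, YER158C, YER160C, RTT102 and RPS17B were chosen for their position.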

Additional observations from a re-analysis of the deposited data

How the results depend on the processing

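Of the 14 called genes, BUR6, TOA1, TAF1, TAF2 and TRA1 kept their call and direction in all 12 alternatives. DESeq2, upper-quartile factors, either filter and the replicate block left the count of the 34 called higher at 8 to 12. Over all genes tested the count called higher was then between 1292 (DESeq2) and 1626 (replicate block), against 1576 in the main fit. The count of the 34 called lower was 5 with upper-quartile factors and 3 otherwise. Over all genes it was between 1432 (DESeq2) and 1686 (replicate block), against 1606 in the main fit. The same-numbered libraries deviated with a correlation of -0.065, so the numbers were not taken to pair the samples. With the replicate block 10 of the 34 were called higher and 3 lower, with MOT1 losing its call.

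With edgeR, library size alone called 23 higher and 0 lower, with a member median of 0.293, and limma on log2(TPM + 1) or log2(TPM + 0.1) called 28 higher and 0 lower, with medians of 0.358 and 0.372. In these fits 0 of the 34 were lower at an unadjusted p under 0.05 either, while DESeq2 called 3 lower. Upper-quartile factors gave a median of 0.064. In the comparison lists, 19 of 71 genes were called higher and 19 lower, against 32 and 10 with library size alone, 41 and 8 on log2(TPM + 1), and 40 and 8 on log2(TPM + 0.1). Because these scalings moved the median of all genes up, 11 genes below 0 with TMM factors turned above it: with library size alone SPT15 (0.15), SPT20 (0.05), SPT8 (0.16), SUA7 (0.20), SUS1 (0.17), TAF3 (0.11), TAF4 (0.19), TAF6 (0.02), TAF9 (0.08), TOA2 (0.19), UBP8 (0.15), on log2(TPM + 1) SPT15 (0.23), SPT20 (0.13), SPT8 (0.24), SUA7 (0.27), SUS1 (0.25), TAF3 (0.18), TAF4 (0.27), TAF6 (0.10), TAF9 (0.16), TOA2 (0.27), UBP8 (0.22), and on log2(TPM + 0.1) SPT15 (0.23), SPT20 (0.13), SPT8 (0.24), SUA7 (0.28), SUS1 (0.25), TAF3 (0.19), TAF4 (0.27), TAF6 (0.10), TAF9 (0.16), TOA2 (0.27), UBP8 (0.23). Of these, TAF6 alone had been called with TMM factors. With library size alone SUA7 and TAF4 were then called higher. On both TPM scales SPT15, SPT8, SUA7, SUS1, TAF4, TOA2 and UBP8 were called higher.

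With each library left out in turn, 6 to 10 of the 34 were called higher and 1 to 3 lower, the median was 0.063 to 0.085, and the comparison lists had 11 to 17 called higher and 11 to 16 lower. Some uncalled genes near 0 changed sign there: SPT8 ranged from -0.15 to 0.05, SUA7 from -0.04 to 0.00, TAF4 from -0.06 to 0.03 and TOA2 from -0.12 to 0.07. The cause of these differences was not tested. With 2 libraries per strain, the spread of each gene rests largely on what edgeR borrows from other genes, and the lone library of a reduced strain is assumed to vary like the other strain's.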
